A study of Homo sapiens with 6 samples.

Results

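The 9 genes described here were 7 metallothioneins (MT2A, MT1A, MT1E, MT1F, MT1G, MT1M and MT1X), the transcription factor MTF1 and the zinc exporter SLC30A1. They were taken from the gene table by symbol, and each matched 1 of its 60605 rows that carried an Ensembl identifier. All were measured in LX-2, an immortalized human hepatic stellate cell line, by RNA sequencing of 6 bulk libraries. LX-2 cells were cultured for 24 h in medium taken from HCT116, a human colorectal carcinoma line. In the control group the HCT116 cells carried an empty vector (Vector-CM, n = 3), and in the other group they overexpressed FGFBP1, a secreted protein that releases fibroblast growth factors from the extracellular matrix (FGFBP1-CM, n = 3). Both media were therefore tumor cell conditioned, and LX-2 cells without conditioned medium were not analysed here. The labels do not say whether libraries of a group came from separate cultures, so the p-values measure only the spread between these libraries.

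Metallothioneins are small, cysteine-rich proteins of the cytoplasm and nucleus that bind zinc, copper and cadmium and buffer the free zinc of the cell. Free zinc activates MTF1, which binds metal response elements in the promoters of metallothionein genes and of SLC30A1, and SLC30A1 carries zinc out across the plasma membrane. Oxidative stress and glucocorticoids are further known inducers of metallothionein genes, and the liver is a main site of their expression.

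Total counts ranged from 14003780 to 18508113 per library, and levels are given as CPM, the counts scaled by edgeR for library size and TMM factor, or, between genes, as the deposited FPKM, which also divides by gene length. FGFBP1-CM replicate 1 stood apart, at 40.6 on the first principal component (42.3% of the variance) against 5.17 and 5.20 in the other FGFBP1-CM libraries and -19.7 to -13.9 in Vector-CM, so results are also given without it. Of 16 rows of hepatic stellate markers, 13 were detected well enough to test, and 10 of these had a log2 fold change below 0. TIMP1, an inhibitor of matrix metalloproteinases, was the marker past the threshold (log2 fold change -0.38, adjusted p = 0.0465, edgeR), beside 0.0658% of all genes that passed and were lower, and 4 were lower at an unadjusted p under 0.05, beside 10.7%. The TIMP1 call was lost under several alternatives. Among them were leaving out any 1 Vector-CM library (adjusted p from 0.0761 to 0.242, edgeR) and correction for GC content and length (adjusted p = 0.0661, edgeR). Added up, the 16 stellate rows reached 3556 to 3821 CPM per Vector-CM library, against 2764 to 3296 CPM per FGFBP1-CM library. Most of that sum was VIM, with means of 2585 (Vector-CM) and 2155 CPM (FGFBP1-CM, n = 3 each). SPARC (517, then 365 CPM) and TIMP1 (334, then 257 CPM) followed, so the sum mainly describes these genes. Among the other tested rows, LUM (log2 fold change 0.19) and RGS5 (0.42 and 0.18) were above 0. The rest lay from -0.41 (COL3A1) to -0.09 (COL1A1). LRAT, which stores retinol esters in quiescent stellate cells, had no count, and DES and GFAP had 14 and 52 counts in all. Colorectal epithelial markers summed to 8.24 to 10.5 CPM in Vector-CM and 8.48 to 11.96 CPM in FGFBP1-CM, with 1 of 15 tested (CLDN4) and CEACAM5 and TFF3 at 0. Hepatocyte markers summed to 41.9 to 44.8 CPM in Vector-CM and 18.5 to 28.4 CPM in FGFBP1-CM, with 6 of 15 tested, 4 past the threshold, all lower (again beside 0.0658%), and no marker at 0 in all libraries. These were APOB, ALB and AFP, at 3.37, 3.42 and 3.10 CPM in Vector-CM and 0.277, 0.610 and 0.668 CPM in FGFBP1-CM (means, n = 3), and FGA, at 13 to 16 counts and 0 to 2 counts per library. Most of the hepatocyte sum was SERPINA1, with means of 29.6 (Vector-CM) and 20.6 CPM (FGFBP1-CM, n = 3 each). SERPINA1 was lower without passing the threshold (log2 fold change -0.53, adjusted p = 0.0690, edgeR). The labels name LX-2 as the only cells of every library, so counts of hepatocyte markers do not show that hepatocytes were present. In these bulk libraries, fewer cells that express a marker and less of its RNA per cell cannot be told apart. The part of these marker changes in the results below was not tested.

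The metallothionein transcripts of LX-2 cells were almost entirely MT2A. MT2A, the isoform that most human tissues express at the highest level, had 228 ± 29.2 FPKM (SD, n = 6). Among the 16707 genes tested it was of rank 69 by FPKM and of rank 917 by CPM. SLC30A1 followed at 13.6 ± 1.14 FPKM, MTF1 at 8.004 ± 0.761 FPKM and MT1E at 6.59 ± 0.818 FPKM (SD, n = 6). The level of MT2A per length was thus 16.7 times that of SLC30A1 and 34.6 times that of MT1E. MT1M, MT1F and MT1X were the lowest of the detected isoforms, at 2.01 ± 0.347, 1.84 ± 0.267 and 1.83 ± 0.268 FPKM (SD, n = 6). In this order, the ranges of MT2A and SLC30A1 stood clear of the next gene, whereas those of MTF1 and MT1E overlapped, as did those of MT1M, MT1F and MT1X. The place of MT1M depends on the gene length behind the FPKM, which was 511 bases in the deposited values and 942 exonic bases in GENCODE release 29. The ratios of MT2A and its rank by FPKM depend on length too, with 914 bases for MT2A in the deposited values and 1299 exonic bases in GENCODE. The same lengths were 1052 and 1052 for MT1E, and 5893 and 5474 for SLC30A1. With the GENCODE lengths both ratios would be smaller.

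**Figure D1:**
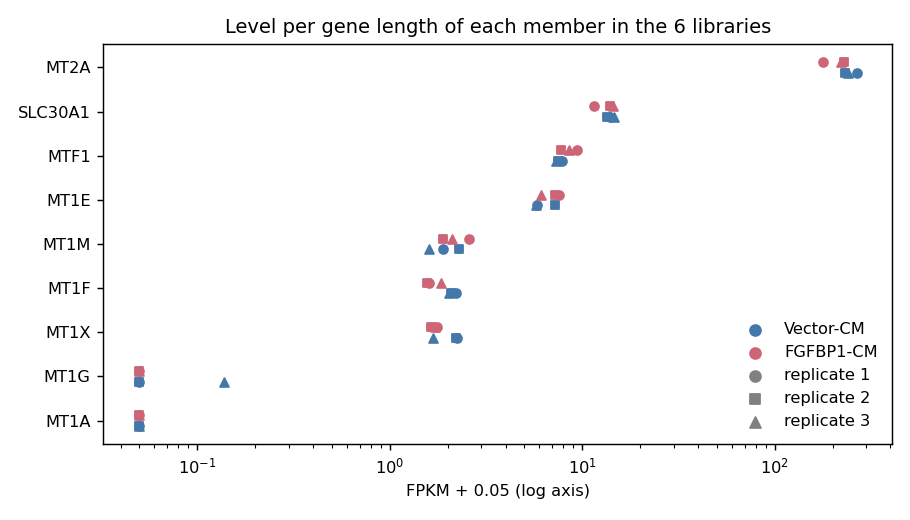
The plot shows the level per gene length of the 9 genes in each library, as FPKM + 0.05 on a log axis, with blue for Vector-CM, red for FGFBP1-CM and a symbol shape for each replicate number. MT2A lies far to the right of all others in the 6 libraries, at 178 to 267 FPKM, and MT1G and MT1A lie at or next to the left edge.

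MT1A and MT1G, both zinc-inducible isoforms, were not expressed at a level that these libraries could measure. MT1A had 0 counts in every library, which allows a level of up to 0.162 to 0.214 CPM depending on the library's total count. MT1G had 0 counts in 5 libraries and 1 count in Vector-CM replicate 3, a value under the same limit. These limits cover counting error only. Both genes were below the filter on low counts and were not tested, so 7 of the 9 genes entered the comparison.

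Counted as reads, MT2A made up 93.3%, 92.0% and 93.4% of the counts of all 22 metallothionein rows, pseudogenes included, in Vector-CM replicates 1 to 3 (exact binomial 95% intervals from 91.0% to 94.2%, which cover counting error only). In FGFBP1-CM replicates 1 to 3 its share was 90.4%, 92.7% and 92.8% (exact binomial 95% intervals from 89.3% to 93.6%). The share was lowest in FGFBP1-CM replicate 1, and the groups overlapped. Among the 15 metallothionein rows outside the 9 genes, 7 had no count, including MT1H and MT4, and only MT2P1, a processed pseudogene of MT2A, passed the filter (log2 fold change -0.19, SE 0.218, adjusted p = 0.652, edgeR).

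The 7 metallothionein genes lie together on chromosome 16, and the protein-coding and pseudogene copies of this locus span 119.1 kb, from 56565049 to 56684196 (GENCODE release 29, GRCh38). MT2A (ENSG00000125148) is on the plus strand at 56608199 to 56609497, MT1E (ENSG00000169715) at 56625475 to 56627112 and MT1M (ENSG00000205364) at 56632233 to 56633986. MT1A (ENSG00000205362) is at 56638666 to 56640087, MT1F (ENSG00000198417) at 56657694 to 56660698 and MT1X (ENSG00000187193) at 56682424 to 56684196, all on the plus strand. MT1G (ENSG00000125144), at 56666731 to 56668065, is the member of the locus on the minus strand. MTF1 (ENSG00000188786; 37809567 to 37859620) and SLC30A1 (ENSG00000170385; 211571568 to 211578742) lie on the minus strand of chromosome 1. The isoforms are close in sequence, so the chance of misassigned reads was measured in the GENCODE transcripts. No stretch of read length in MT2A, MT1A, MT1E, MT1F, MT1G or MT1M occurs in a transcript of another gene. Stretches of 50 bases are shared more, at 3.02% in MT2A, 5.76% in MT1A, 7.10% in MT1E and 1.22% in MT1F. They reach 9.87% in MT1M and 16.5% in MT1G. MT1X shares 321 exonic bases with AC026461.1 on the same strand, and 11.3% of its stretches of read length, so its counts are uncertain.

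The promoters bear on how MTF1 reaches these genes, and the 250 bases upstream of the RefSeq transcript start (GRCh38.p14) are shown for MT2A, MT1X and SLC30A1, with MT1H as a copy of the same locus that had no count. Capitals mark every match to the core of the metal response element, spelled TGCACNC or TGCGCNC and searched on both strands. The windows are chr16:56608334-56608583 for MT2A, chr16:56682220-56682469 for MT1X and chr16:56669564-56669813 for MT1H, on the plus strand, and chr1:211579162-211579411 for SLC30A1, on the minus strand.
MT2A: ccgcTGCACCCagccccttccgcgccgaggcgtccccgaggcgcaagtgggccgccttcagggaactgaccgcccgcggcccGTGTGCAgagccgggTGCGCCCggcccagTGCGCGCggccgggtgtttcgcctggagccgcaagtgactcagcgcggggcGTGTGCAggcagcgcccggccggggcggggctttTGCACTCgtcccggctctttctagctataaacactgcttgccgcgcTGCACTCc
MT1X: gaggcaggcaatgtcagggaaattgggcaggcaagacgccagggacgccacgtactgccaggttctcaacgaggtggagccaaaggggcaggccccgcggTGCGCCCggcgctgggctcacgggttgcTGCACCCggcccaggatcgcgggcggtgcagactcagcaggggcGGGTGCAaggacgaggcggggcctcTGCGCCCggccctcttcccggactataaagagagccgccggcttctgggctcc
MT1H: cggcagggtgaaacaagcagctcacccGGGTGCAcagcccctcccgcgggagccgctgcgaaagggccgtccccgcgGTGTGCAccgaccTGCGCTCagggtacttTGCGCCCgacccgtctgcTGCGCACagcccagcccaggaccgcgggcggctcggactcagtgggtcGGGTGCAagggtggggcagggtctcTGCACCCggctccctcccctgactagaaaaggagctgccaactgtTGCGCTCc
SLC30A1: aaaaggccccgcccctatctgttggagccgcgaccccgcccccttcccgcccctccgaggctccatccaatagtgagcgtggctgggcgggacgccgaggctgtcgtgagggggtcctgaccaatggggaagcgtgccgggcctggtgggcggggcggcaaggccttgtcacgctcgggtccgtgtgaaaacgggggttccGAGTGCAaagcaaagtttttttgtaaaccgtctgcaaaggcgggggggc
The MT2A window holds 7 matches, and 0.031% of the 35116 RefSeq promoter windows of this length hold as many. Those windows were not matched for GC content, which is 73.2% in the MT2A window. The MT1X window holds 4 matches (0.37% of windows hold as many) and the SLC30A1 window 1 match (24.8% of windows hold at least 1). The MT1H window holds 8 matches, more than MT2A, although MT1H had 0 counts in all 6 libraries. In the MTF1 window no match was found. The SLC30A1 window lies upstream of the GENCODE start used for its coordinates above, and an annotated MT2A transcript starts upstream of the MT2A window. A match describes the letters of the window and was not tested as a binding site. MT1A, MT1E, MT1F, MT1G and MT1M have no entry in the promoter table.

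The comparison of FGFBP1-CM with Vector-CM addresses how FGFBP1 overexpression in tumor cells alters, through their medium, the transcripts of stellate cells. None of the 7 tested genes passed an adjusted p of 0.05 in the edgeR quasi-likelihood test, in which 20 of 16707 genes (0.12%) passed. At an unadjusted p under 0.05, 2 of the 7 were lower (MT2A and MT1F) and none was higher, beside 10.7% lower and 11.1% higher over all genes tested (21.7% in both directions). DESeq2, which gave no adjusted p for MT1F, MT1M and MT1X, and limma also called none of them. The same 2 genes were those whose groups did not overlap, beside 26% of all genes tested, made up of 13.2% lower and 12.8% higher in FGFBP1-CM. The median log2 fold change of the 7 genes was -0.10, beside 0.00317 over all genes tested, and 4 of the 7 were below 0, beside 49.3%. Without FGFBP1-CM replicate 1 the median was 0.00522 and 3 of the 7 were below 0.

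MT2A was measured at 244, 215 and 225 CPM in Vector-CM replicates 1 to 3, and at 158, 209 and 200 CPM in FGFBP1-CM replicates 1 to 3. Every FGFBP1-CM library was below every Vector-CM library, with FGFBP1-CM replicate 1 far below the rest and the other FGFBP1-CM libraries just under the lowest Vector-CM library. The group means were 228 ± 14.997 CPM and 189 ± 27.2 CPM (SD, n = 3), and the fitted difference was -0.27 on the log2 scale (SE 0.0937, 95% interval -0.47 to -0.07, adjusted p = 0.129, edgeR). Without FGFBP1-CM replicate 1, the log2 fold change was -0.15 (adjusted p = 0.307, edgeR). In that fit 0.421% of genes passed. With no filter on low counts beyond 1 count, MT2A passed the threshold (log2 fold change -0.26, adjusted p = 0.0152, edgeR), in a fit where 3.64% of 38002 genes passed.

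MT1F, like the other MT1 isoforms a zinc-binding protein of the same fold as MT2A, was the other gene with separate groups. Its level was 4.01, 3.82 and 3.76 CPM in Vector-CM and 2.79, 2.82 and 3.29 CPM in FGFBP1-CM, from 45 to 72 counts per library. All 3 FGFBP1-CM libraries were below the Vector-CM libraries, and here FGFBP1-CM replicate 1 did not stand apart from replicate 2. The log2 fold change was -0.38 (SE 0.172, 95% interval -0.76 to -0.01, adjusted p = 0.212, edgeR), and -0.34 without FGFBP1-CM replicate 1.

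MT1X had 3.79, 3.75 and 2.89 CPM in Vector-CM and 2.89, 2.75 and 2.87 CPM in FGFBP1-CM. The Vector-CM libraries were spread, with replicate 3 within the FGFBP1-CM range. The difference for MT1X was -0.29 on the log2 scale (SE 0.184, 95% interval -0.69 to 0.10, adjusted p = 0.374, edgeR).

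MT1E and MT1M had fold changes above 1, with groups that overlapped. MT1E had 6.13, 7.65 and 6.12 CPM in Vector-CM and 7.74, 7.58 and 6.35 CPM in FGFBP1-CM, which gave 0.13 as log2 fold change (SE 0.145, 95% interval -0.18 to 0.44, adjusted p = 0.637, edgeR). MT1M, at 12 to 24 counts per library, had 0.947, 1.15 and 0.807 CPM in Vector-CM and 1.26, 0.939 and 1.04 CPM in FGFBP1-CM. The difference for MT1M was 0.17 on the log2 scale (SE 0.282, 95% interval -0.44 to 0.78, adjusted p = 0.766, edgeR), an interval that spans 0.738-fold to 1.72-fold. For both isoforms the highest value was in FGFBP1-CM replicate 1, the library in which MT2A was lowest. Without that library the log2 fold change was 0.08 for MT1E and 0.04 for MT1M.

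**Figure D2:**
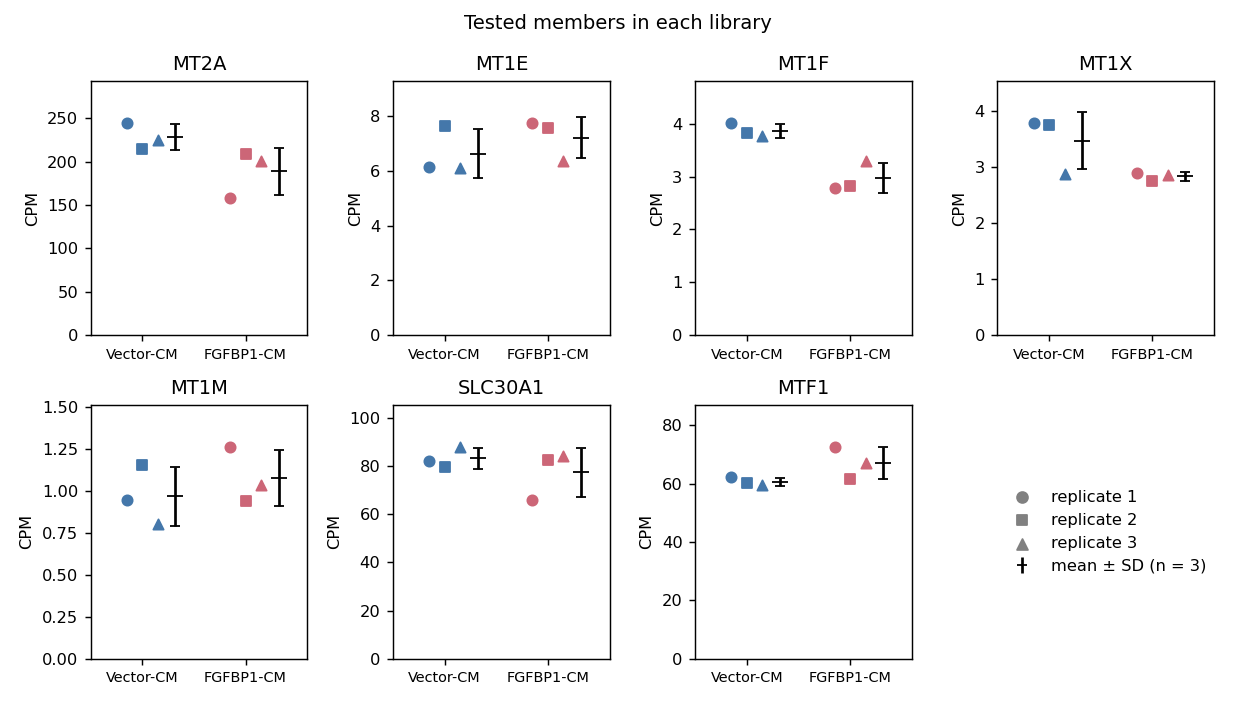
Each panel plots the level of 1 tested gene in CPM from 0, with 1 point per library (blue, Vector-CM; red, FGFBP1-CM; shape, replicate number) and a black bar for the mean ± SD (n = 3). MT2A and MT1F have no overlap between groups, and the red circle of FGFBP1-CM replicate 1 is the lowest point for MT2A, MT1F and SLC30A1 and the highest for MT1E, MT1M and MTF1.

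The opposite position of FGFBP1-CM replicate 1 for MT2A and MT1E was examined as a ratio within each library, a comparison chosen after the values were seen. MT1E had 2.51, 3.56 and 2.72 counts per 100 MT2A counts in Vector-CM, and 4.90, 3.63 and 3.17 in FGFBP1-CM. FGFBP1-CM replicates 1 and 2 were above every Vector-CM library, and replicate 3 was below Vector-CM replicate 2. Since these genes were picked for that position, the ratio is given without a test.

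SLC30A1, the plasma membrane exporter and a target of MTF1, was measured at 82.2, 79.6 and 87.9 CPM in Vector-CM and at 65.8, 82.4 and 84.4 CPM in FGFBP1-CM. FGFBP1-CM replicate 1 was low, and the other FGFBP1-CM libraries were inside the Vector-CM range. The difference for SLC30A1 was -0.10 on the log2 scale (SE 0.0895, 95% interval -0.30 to 0.09, adjusted p = 0.529, edgeR), and it was 0.00522 without FGFBP1-CM replicate 1 (adjusted p = 0.986, edgeR).

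MTF1, the zinc-sensing activator of these genes, was measured at 62.2, 60.1 and 59.6 CPM in Vector-CM and at 72.5, 61.7 and 67.1 CPM in FGFBP1-CM. FGFBP1-CM replicates 1 and 3 were above all Vector-CM libraries, while FGFBP1-CM replicate 2 was just under Vector-CM replicate 1. The difference for MTF1 was 0.15 on the log2 scale (SE 0.0732, 95% interval -0.01 to 0.30, adjusted p = 0.264, edgeR), and 0.09 without FGFBP1-CM replicate 1.

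**Figure D3:**
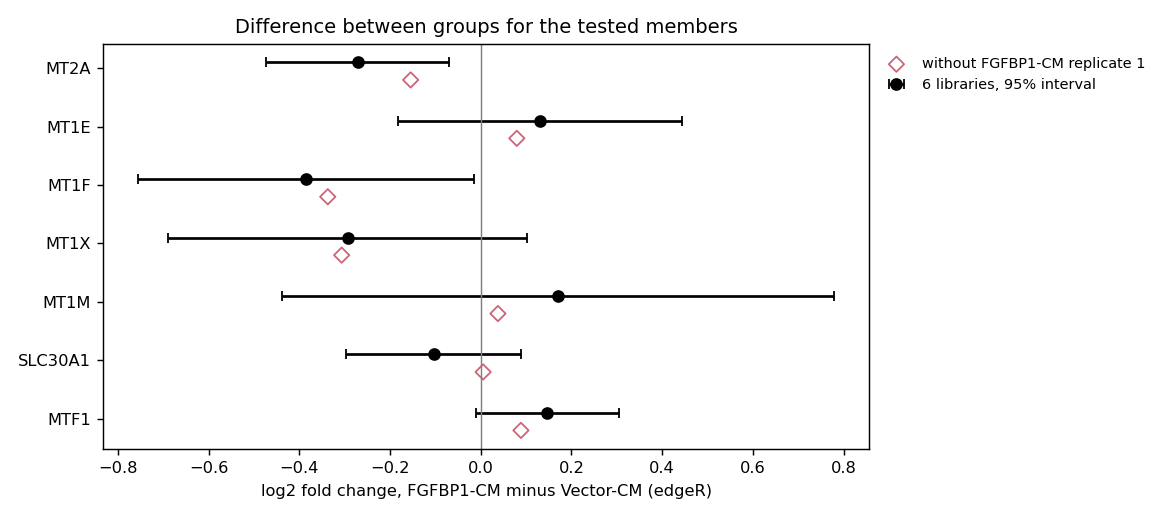
The plot shows the log2 fold change (FGFBP1-CM minus Vector-CM, edgeR) of the 7 tested genes, with black points and 95% intervals from all 6 libraries and open red diamonds for the fit without FGFBP1-CM replicate 1. The intervals of MT2A and MT1F lie below 0 before adjustment over all genes, and every diamond except that of MT1X lies closer to 0 than its black point.

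How alike the genes moved over the 6 libraries was described with Pearson's r of log2 CPM, without a test, since the libraries share groups and FGFBP1-CM replicate 1 weighs on every value. MT2A had r = 0.844 with SLC30A1, 0.788 with MT1F, 0.504 with MT1X, -0.618 with MT1E, -0.729 with MT1M and -0.863 with MTF1. The 5 genes most like MT2A were MEG3 (a long noncoding RNA, r = 0.999), LENG8 and TMC6 (0.998 and 0.997), CDKN2A (a cell cycle inhibitor, 0.997) and ABTB1 (0.996), and 5.71% of genes with a mean of at least 5 CPM had r over 0.9. Among the genes most like SLC30A1 were RAD21 (a cohesin subunit, r = 0.994), HMGN3 (a nucleosome-binding protein, 0.986), NAP1L1 (a histone chaperone, 0.985) and CCNG1 (cyclin G1, 0.985), beside 2.57% of genes over 0.9.

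The other zinc transporters gave the setting for SLC30A1. Of 10 further exporter genes (the SLC30 family, which moves zinc out of the cytosol, and TMEM163), 6 were tested, 5 were above 0 and none passed the adjusted threshold (median log2 fold change 0.07). At an unadjusted p under 0.05, 1 of the 6 was higher, beside 11.1% of all genes tested. After correction for GC content and length, 3 of the 6 were above 0. SLC30A6, a member of the SLC30 family found in the Golgi, had 62.0, 59.6 and 63.9 CPM in Vector-CM and 96.1, 73.3 and 75.7 CPM in FGFBP1-CM. Its FGFBP1-CM libraries were all higher, and its log2 fold change was 0.40 (SE 0.0943, adjusted p = 0.0658, edgeR, and 0.00879 with DESeq2, which called 3.5% of all genes), where that of SLC30A1 was -0.10. The difference between these genes was not tested. SLC30A6 was at 0.27 without FGFBP1-CM replicate 1 (adjusted p = 0.0704, edgeR). After correction for GC content and length it was at 0.35 (adjusted p = 0.0998, edgeR). SLC30A3 and SLC30A4, exporters into vesicles, had log2 fold changes of -0.22 and 0.12 (adjusted p = 0.712 and 0.389, edgeR), and SLC30A3 turned to 0.01 without FGFBP1-CM replicate 1. Of 14 SLC39 rows, which bring zinc into the cytosol, 9 were tested, 7 were below 0 and none passed (median -0.10). At an unadjusted p under 0.05, 1 of the 9 was lower, beside 10.7% of all genes tested. SLC39A10, a plasma membrane importer, had 155, 147 and 149 CPM in Vector-CM and 100.6, 146 and 141 CPM in FGFBP1-CM. As for MT2A and SLC30A1, its low value was that of FGFBP1-CM replicate 1, and its log2 fold change was -0.22 (SE 0.109, adjusted p = 0.260, edgeR) with that library and -0.07 without it. SLC39A13 and SLC39A7, which release zinc from internal stores, had log2 fold changes of -0.19 and -0.11 (adjusted p = 0.209 and 0.324, edgeR).

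Copper is the other metal that metallothioneins buffer, and of 11 copper handling genes 10 were tested, 7 were above 0 and none passed (median log2 fold change 0.11). At an unadjusted p under 0.05, 1 of the 10 was higher, beside 11.1%. SCO1, which delivers copper to cytochrome c oxidase, differed by 0.23 on the log2 scale (adjusted p = 0.156, edgeR), the exporter ATP7A by 0.17 (adjusted p = 0.254) and COMMD1, a regulator of copper export, by 0.16 (adjusted p = 0.371). Without FGFBP1-CM replicate 1, 6 of the 10 were above 0, the median was 0.04 and SCO1 differed by 0.13.

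Of 14 genes that are known to respond to metals, oxidants or heat, as metallothioneins also do, 13 were tested, 12 were above 0 (median log2 fold change 0.37), 9 were higher at an unadjusted p under 0.05 (beside 11.1% of all genes tested) and 1 passed the adjusted threshold, beside 0.0539% of all genes tested that passed and were higher. That gene was SLC7A11, the cystine transporter that feeds glutathione synthesis, with 36.4, 29.01 and 35.1 CPM in Vector-CM and 68.5, 45.9 and 57.4 CPM in FGFBP1-CM. Its groups did not overlap, and its log2 fold change was 0.77 (SE 0.127, adjusted p = 0.0435, edgeR). The call was lost when any 1 Vector-CM library was left out (log2 fold change from 0.68 to 0.84, adjusted p from 0.0977 to 0.242, edgeR). It was also lost after correction for GC content and length (0.70, adjusted p = 0.0661, edgeR) and with a filter of 1 CPM on average (adjusted p = 0.0569, edgeR). In limma, SLC7A11 had an adjusted p of 0.185 on log2(FPKM + 1) and 0.176 on log2(FPKM + 0.1). HMOX1, the heme oxygenase that cadmium and oxidants induce, had 29.1, 30.6 and 34.0 CPM in Vector-CM and 181, 52.0 and 77.9 CPM in FGFBP1-CM. FGFBP1-CM replicate 1 was the library with the most HMOX1 and the least MT2A. HMOX1 differed by 1.74 on the log2 scale (SE 0.325, adjusted p = 0.0558, edgeR) and, without that library, by 1.06 (adjusted p = 0.000480, edgeR). HSPA1B, a heat shock protein, differed by 0.64 on the log2 scale (adjusted p = 0.0680, edgeR), and by 0.40 without FGFBP1-CM replicate 1. Without FGFBP1-CM replicate 1, 11 of the 13 genes were above 0 (median 0.28) and 4 passed, beside 0.421% of all genes in that fit.

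Of 15 genes of the glucocorticoid response, the other known input to metallothionein promoters, 13 were tested, 10 were below 0 (median log2 fold change -0.21), 5 were lower at an unadjusted p under 0.05 (beside 10.7% of all genes tested) and none passed the adjusted threshold in edgeR. DESeq2 called 2 of them, beside 3.5% of all genes tested. PER1, a clock gene that glucocorticoids induce, had 104, 92.4 and 93.1 CPM in Vector-CM and 38.9, 75.7 and 67.7 CPM in FGFBP1-CM. Its groups did not overlap, and as for MT2A the lowest value was that of FGFBP1-CM replicate 1 (log2 fold change -0.67, SE 0.169, adjusted p = 0.0727, edgeR). TSC22D3, which encodes the glucocorticoid-induced leucine zipper, and the transcription factor KLF9 had log2 fold changes of -0.48 and -0.39 (adjusted p = 0.0761 and 0.0994, edgeR). Without FGFBP1-CM replicate 1, the median of the list was -0.07 and 1 gene passed, beside 0.421% of all genes in that fit. That gene was PER1 (log2 fold change -0.43, adjusted p = 0.0219, edgeR), while TSC22D3 and KLF9 were at -0.31 and -0.22. Whether either list bears on the level of MT2A was not tested.

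**Figure D4:**
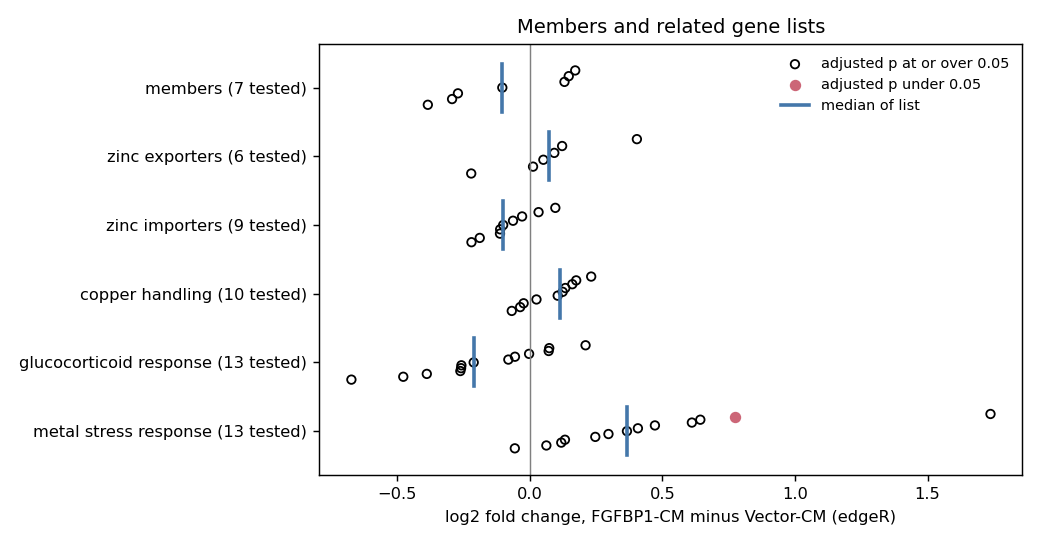
Each row plots the log2 fold changes (FGFBP1-CM minus Vector-CM, edgeR) of the tested genes of 1 list, with open circles for an adjusted p at or over 0.05, a filled red circle for SLC7A11 and a blue line for the median. The metal stress genes lie mostly to the right (median 0.37) and the glucocorticoid genes mostly to the left (median -0.21), with the members' median at -0.10.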

How the data were processed

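The 6 RNA sequencing libraries of LX-2 cells were grouped by their labels. Per the submitters' processing notes and the study's methods, paired-end reads were aligned by the authors with HISAT2 2.0.5 and counted them with featureCounts 1.5.0-p3. The notes name genome build hg18, but 96.3% of the Ensembl identifiers are in GENCODE release 29 (GRCh38), used here for coordinates. Annotation release and strand setting are not given in the sources used here, and the sources name both poly(A) selection and ribosomal RNA depletion. The authors deposited raw counts and FPKM per gene. The 175 rows with the authors' own identifiers (0.0769% of counts) stayed in the fit.

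Counts were filtered with filterByExpr, scaled by TMM and tested with the quasi-likelihood F-test of edgeR 4.0.16 (R 4.3.3), with Benjamini-Hochberg adjustment over 16707 genes and a threshold of 0.05. The SE was the log2 fold change divided by the square root of F. Members and lists were chosen with earlier results of these data known, so no list was tested. All 9 genes are described. Of each list, genes past the threshold and at most 3 with the largest change were named, and for MT2A and SLC30A1 the 5 most correlated genes with a mean of at least 5 CPM, of which 1 is not reported here. The promoter search, the shared stretches, the MT1E to MT2A ratio and the neighboring genes were chosen after the table was seen. The alternatives were scaling by RLE or by total counts, a filter of only 1 count or of 1 CPM on average, DESeq2 1.42.0, limma 3.58.1 on log2(FPKM + 1) and log2(FPKM + 0.1), a replicate block, a loess correction for GC content and length (alone and with the block; 98.2% of tested genes had values) and leaving out each library. The procedures were tested on simulated counts. No libraries were merged, since all replicate pairs differed by more than sampling noise.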

Additional observations from a re-analysis of the deposited data

How the results depend on the processing

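None of the members passed the threshold under the alternatives, except MT2A with no filter beyond 1 count (log2 fold change -0.26, adjusted p = 0.0152). Over its alternatives the log2 fold change of MT2A ranged from -0.35 to -0.15 and its adjusted p from 0.0152 to 0.330. MT1F (-0.46 to -0.23), MT1X (-0.41 to -0.16), MT1E (0.07 to 0.24), MT1M (0.04 to 0.30) and MTF1 (0.09 to 0.20) kept their direction. SLC30A1 reversed once, to 0.00522 without FGFBP1-CM replicate 1, and was otherwise below 0, down to -0.17. DESeq2 gave no adjusted p for MT1F, MT1X and MT1M.

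The number of genes past the threshold was 20, and became 38 with RLE scaling, 1382 with no filter beyond 1 count, 11 with a mean of at least 1 CPM, 585 with DESeq2, 1 with limma on either FPKM scale, 90 with the replicate block, 7 with the GC and length correction and 85 with that correction and the block. Leaving out 1 library gave 4 (without Vector-CM replicate 2 or 3) to 879 (without FGFBP1-CM replicate 2). In the same order of settings, the metal stress list had 2, 8, 0, 5, 0, 3, 0 and 4 genes called in place of 1, and 0 to 8 when 1 library was left out. Zinc exporters had 1 gene called with no filter, 1 with DESeq2 and 0 to 1 when 1 library was left out, and glucocorticoid genes 4, 2 and 0 to 4. The members had 1 gene called with no filter. The cause of these shifts was not tested. The replicate numbers did not clearly pair the libraries. Deviations of same-numbered libraries correlated at -0.112, -0.0238 and 0.145, and only the number 3 libraries correlated best with each other. The labels do not say whether same-numbered libraries were handled together, so pairing was neither shown nor excluded. The block changed no call of a member.

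The tested MT1 isoforms had 12 to 147 counts per library, which limits their precision.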

Other observations

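Genes next to the metallothionein locus were read to see the setting of MT2A and MT1F. Of 9 protein-coding genes within 300 kb of the locus, 8 were tested and none passed the adjusted threshold (edgeR), with 4 above and 4 below 0 and a median log2 fold change of -0.03. GNAO1, a G protein subunit, and BBS2, a subunit of the ciliary BBSome, were lower at an unadjusted p under 0.05, with log2 fold changes of -0.23 and -0.25 (adjusted p = 0.156 and 0.183, edgeR), beside 10.7% of all genes that were lower at that p. The groups did not overlap for GNAO1, beside 13.2% of all genes that were lower without overlap, and overlapped for BBS2. These genes were chosen for their position, after the values of the metallothioneins were known.

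The summed level of the 22 metallothionein rows was 262, 233 and 241 CPM in Vector-CM and 175, 225 and 216 CPM in FGFBP1-CM, without a test. Its order over the libraries was that of MT2A, with FGFBP1-CM replicate 1 lowest. Since MT2A made up 90.4% to 93.4% of these counts, this likeness was fixed in advance and does not describe the other rows.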
